A study of Mus musculus with 9 samples.

Results

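The genes described here are 7 markers of the formative and early epiblast states, chosen by name as Zic2, Zic5, Pou3f1, Otx2, Fgf5, Sox3 and Sall2. They were chosen with earlier results of these data known. All but Fgf5, which encodes a growth factor, encode transcription factors. A gene was followed by the brightest of its probe sets, over all arrays, that names this gene alone. Each of 6 of the 7 had 1 such probe set among the 10476 of the deposited table, and Fgf5 had none among the values used here, so it is not analysed here. The cells were mouse E14 embryonic stem cells, an established line, and all were kept undifferentiated in serum with LIF, the cytokine that sustains self-renewal. They received DMSO alone, 0.1 μM 5-Iodotubercidin (5-ITu) or 1.0 μM 5-ITu for 26 h. 5-ITu resembles adenosine and blocks Haspin, a kinase of mitotic histone H3. RNA of 3 replicates per condition, which the methods call biological, was read on Affymetrix Mouse Gene 2.0 ST arrays, 1 array each. All 9 arrays come from the same cell line.

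Embryonic stem cells in serum and LIF resemble the naive epiblast of the blastocyst. When they leave this state, they pass through a formative phase in which Otx2, Pou3f1 and Fgf5 are switched on, while factors such as Klf4 and Tbx3 recede. Otx2 is a homeobox factor that works with Oct4 at enhancers of the formative state, and Pou3f1, also called Oct6, is a POU factor of the epiblast and of early neural cells. Zic2 and Zic5 are zinc finger factors of the epiblast and of the dorsal neural tube. Sox3 belongs to the same SOX subgroup as Sox2, and Sall2 is a zinc finger factor of the Sall family, to which the pluripotency factor Sall4 also belongs. Fgf5 is a secreted FGF ligand and a classical marker of the epiblast after implantation.

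Values are log2 signals after RMA, the array method that corrects background, normalizes the arrays to each other and summarises probes to probe sets. Signals of different probe sets were not compared with each other. The methods name a background threshold, 8.46 on the log2 scale, and limma was run on the 9911 probe sets that exceeded it on 3 or more of the 9 arrays. Of the 6 genes measured, Zic2, Zic5, Pou3f1 and Otx2 were above it on all 9 arrays and Sox3 on 7. Sall2 was above it on 2, both of DMSO, and was therefore read from a fit of all 10476 probe sets. A probe set was kept in the deposited table if it exceeded the threshold on at least 1 array, so Sall2 is in it only through DMSO, the group where it is highest. Its differences from DMSO are given as descriptions of these values. A gene is called lower or higher at a Benjamini-Hochberg adjusted p under 0.05, and each ± is an SD over 3 arrays, and SE is the standard error from limma. The arrays had 9469 to 9780 probe sets above the threshold, and their number limits the precision. The markers of embryonic stem cells fixed for the check were measured for 10 of 11 genes, and their summed signal, which the brightest genes dominate, was 15.31 to 15.36 in DMSO, 15.36 to 15.38 at 0.1 μM and 15.26 to 15.33 at 1.0 μM. At 1.0 μM 3 of the 10 were called lower and 1 higher, beside 14.3% and 13.4% of all tested probe sets. Those lower were Lin28a (-0.60), Utf1 (-0.24) and Tdgf1 (-0.24), which the list of formative genes also holds, and Klf4 was higher. All were named after their values were seen.

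Some arrays stood apart within their group. Replicate 1 was the highest DMSO array for all 6 genes and the highest 1.0 μM array for 5 of them, while over all tested probe sets replicate 1 was highest for 35.1% in DMSO and 39.1% at 1.0 μM. At 1.0 μM, replicate 1 lay 0.48 above the mean of the other arrays for Zic2, 0.33 above it for Sall2 and 0.29 above it for Otx2. The arrays at 0.1 μM were closer to each other. The median SD over tested probe sets was 0.0859 in DMSO, 0.0424 at 0.1 μM and 0.0753 at 1.0 μM, and at least 2 arrays of a group held the same deposited value for 3.39% of probe sets in DMSO, 6.72% at 0.1 μM and 2.80% at 1.0 μM. Values without both replicate 1 arrays, an alternative added once the data had been examined, are given beside the results.

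Sequence upstream of the start site was at hand in RefSeq (GRCm38.p6) for Zic5, Otx2, Fgf5 and Sall2. The 250 bases before the start are shown for Zic5, which was lower at both doses, and for both annotated starts of Sall2, whose signals lay near or under the background threshold. All 3 lie on the minus strand and are written 5′ to 3′ in the direction of the gene. The stretches are chr14:122465659-122465908 for Zic5, chr14:52328671-52328920 for the first start of Sall2 and chr14:52316324-52316573 for the second. The motifs searched on both strands were the TATA box TATAAA, the box CCAAT, the GC box GGGCGG, the octamer ATGCAAAT bound by POU factors, a SOX core ACAATG, a second SOX core ACAAAG, and the OTX core TAATCC. Capitals mark the matches.
Zic5: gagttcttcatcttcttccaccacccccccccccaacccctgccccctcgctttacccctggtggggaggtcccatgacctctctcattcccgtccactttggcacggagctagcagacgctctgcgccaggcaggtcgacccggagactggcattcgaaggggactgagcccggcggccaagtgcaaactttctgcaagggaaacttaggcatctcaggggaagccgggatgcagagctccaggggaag
Sall2 first start: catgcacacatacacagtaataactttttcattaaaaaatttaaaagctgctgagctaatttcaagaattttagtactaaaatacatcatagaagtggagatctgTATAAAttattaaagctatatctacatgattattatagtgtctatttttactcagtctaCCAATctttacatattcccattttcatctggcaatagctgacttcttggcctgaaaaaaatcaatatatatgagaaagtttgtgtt
Sall2 second start: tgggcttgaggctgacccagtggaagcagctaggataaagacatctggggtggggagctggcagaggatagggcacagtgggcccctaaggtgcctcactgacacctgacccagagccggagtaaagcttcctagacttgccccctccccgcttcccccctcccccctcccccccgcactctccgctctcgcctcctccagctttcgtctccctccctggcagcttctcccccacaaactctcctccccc
The stretch before Zic5 held 11 CG dinucleotides and a GC content of 62.4%, against medians of 6 and 52.4% over 32851 such stretches of all genes, and it held none of these motifs. Of all such stretches, 66.5% held as few CG or fewer. The first start of Sall2 had an AT-rich stretch with 28.0% GC and no CG, 1 TATAAA and 1 CCAAT. The second had 64.4% GC, 6 CG and none of the motifs. Over all stretches, TATAAA occurred in 12.4%, CCAAT in 33.8%, GGGCGG in 32.7%, ATGCAAAT in 1.60%, ACAATG in 10.7%, ACAAAG in 16.5% and TAATCC in 6.25%. In the 4 annotated starts of Otx2, which did not pass at either dose, there was 1 TATAAA, 1 CCAAT and 1 TAATCC. Which start is used in E14 cells was not measured, and such matches only describe the letters.

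At 1.0 μM 5-ITu, Zic2, Zic5 and Pou3f1 fell. Zic2 was at 60.3% of its DMSO level on the linear scale, Zic5 at 65.3% and Pou3f1 at 80.5%. Otx2 and Sox3 did not pass, and Sall2 is described apart because of its low signal. Of the 5 tested genes, 3 were called lower, whereas 14.3% of all tested probe sets were called lower at this dose. None was called higher by limma or at an unadjusted p under 0.05, against 13.4% of all tested probe sets called higher by limma. The methods' one-way F was used here with Benjamini-Hochberg adjustment, which the methods do not mention, and without their 1.5-fold cut-off. It tests the 3 groups together and no single comparison, and it passed for Zic2 and Zic5. For the same 3 genes every 1.0 μM array was below every DMSO array, as for 20% of all tested probe sets, while 18.6% were separate in the other direction. All 5 tested genes had a negative difference, with a median of -0.31, while the median of all tested probe sets was -0.0056. Because the genes were chosen with earlier results of these data known, these counts and medians only describe them. In RNA of whole cultures, fewer cells that express a gene and less RNA of it per cell cannot be told apart.

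**Figure D1:**
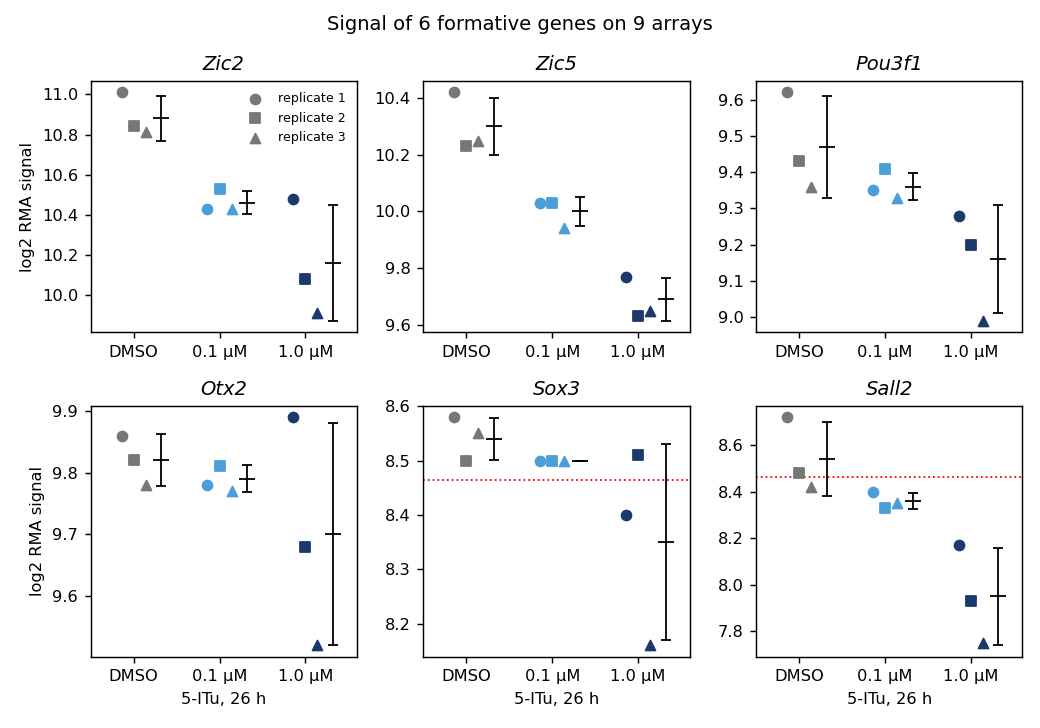
Log2 RMA signal of the 6 measured genes on each of the 9 arrays (points, shaped by replicate number), with the mean and SD of each group in black and the background threshold of 8.46 as a dotted red line where it falls in range. The y axes differ between genes and do not start at 0. For Zic5 the 3 groups are separate, for Otx2 they overlap, and the Sall2 signals at 1.0 μM all lie under the threshold.

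Zic2, whose product is needed for the forebrain and the neural tube, showed the largest decrease of the 6. Its log2 signals were 11.01, 10.84 and 10.81 in DMSO, 10.43, 10.53 and 10.43 at 0.1 μM and 10.48, 10.08 and 9.91 at 1.0 μM. Every treated array was below every DMSO array, but replicate 1 at 1.0 μM was within the range of the arrays at 0.1 μM. The difference between 1.0 μM and DMSO was -0.73 (SE 0.12, adjusted p = 0.0027 from limma), which placed Zic2 at rank 95 from the lowest of 9911 probe sets. Without any single array it stayed between -0.89 and -0.60 and kept its call. Without replicate 1 of DMSO and of 1.0 μM, it was -0.83 (adjusted p = 0.00063 from limma).

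At 0.1 μM, Zic2 averaged 10.46 ± 0.056 against 10.88 ± 0.11 in DMSO (SD, n = 3 arrays each). The difference was -0.42 (SE 0.12, adjusted p = 0.075 from limma), which did not pass. Zic2 was at rank 45 from the lowest of 9911 probe sets at this dose. Omission of 1 array gave a call only for replicate 1 or 3 at 1.0 μM, arrays that share the estimate of the spread. The other single omissions gave adjusted p from 0.092 (without DMSO replicate 3) to 0.20 (without 0.1 μM replicate 1) from limma. The adjusted p was 0.015 from limma without replicate 1 at 1.0 μM, 0.041 without replicate 3 at 1.0 μM, 0.019 with only the compared groups in the fit and 0.024 without replicate 1 of DMSO and of 1.0 μM.

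Zic5, the neighbour of Zic2 in the genome, fell at both doses. Its log2 signals were 10.42, 10.23 and 10.25 in DMSO, 10.03, 10.03 and 9.94 at 0.1 μM and 9.77, 9.63 and 9.65 at 1.0 μM. The 3 groups did not overlap, and the gaps between them were 0.21 from DMSO to 0.1 μM and 0.16 from 0.1 μM to 1.0 μM. Between 1.0 μM and DMSO the difference was -0.62 (SE 0.064, adjusted p = 0.00025 from limma), and it kept its call without any single array (-0.66 to -0.56).

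Between 0.1 μM and DMSO, Zic5 differed by -0.31 (SE 0.064, adjusted p = 0.024 from limma), or 80.9% of the DMSO level. It was the only gene of the 5 tested that passed at this dose, at which 1.56% of all tested probe sets were called lower. None was called higher, at an unadjusted p under 0.05 either, whereas 4.66% of all tested probe sets were called higher. Zic2, Zic5 and, by less than the second decimal, Sox3 had all 0.1 μM arrays below all DMSO arrays, as did 15.8% of all tested probe sets, while 17.8% were separate in the other direction. Zic5 was among the 73 probe sets, 0.737% of those tested, that were lower at both doses, and among the 14 of them, 19.2%, that were also lower at 1.0 μM than at 0.1 μM. The call of Zic5 at 0.1 μM was lost without replicate 1, 2 or 3 of that dose (adjusted p = 0.083, 0.078 and 0.10 from limma), with a difference of -0.32, -0.32 and -0.28. Without replicate 1 of DMSO and of 1.0 μM the difference was -0.25 and passed (adjusted p = 0.030 from limma). Zic5 was also lower at 1.0 μM than at 0.1 μM, by -0.31 (SE 0.064, adjusted p = 0.0066 from limma), without any single array as well.

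In the RefSeq gene table, Zic5 and Zic2 lie next to each other with 1 annotated long noncoding RNA gene, 2610035F20Rik, between them. The nearest tested genes on either side were looked up by position. On the far side of Zic2, Pcca, the gene of a subunit of propionyl-CoA carboxylase, fell at 1.0 μM to 9.29 ± 0.082 against 9.89 ± 0.14 in DMSO (SD, n = 3 arrays each), a difference of -0.60 (SE 0.072, adjusted p = 0.00044 from limma). At 0.1 μM Pcca differed from DMSO by -0.10 and did not pass (adjusted p = 0.44 from limma). On the far side of Zic5, Clybl, which encodes a mitochondrial lyase, did not pass at 1.0 μM (-0.12) or at 0.1 μM (0.13).

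The signal of Sall2 was close to background. Its log2 signals were 8.72, 8.48 and 8.42 in DMSO, 8.40, 8.33 and 8.35 at 0.1 μM and 8.17, 7.93 and 7.75 at 1.0 μM. The groups did not overlap, although the gap between DMSO and 0.1 μM was 0.02. All arrays at both doses and 1 of DMSO were below the threshold of 8.46, and the gene entered the table through the other DMSO arrays. The size of its difference from DMSO is therefore not free of that choice, and no p is given for it. Between 1.0 μM and DMSO the difference was -0.59 (SE 0.11, from the fit of all 10476 probe sets).

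At 0.1 μM, Sall2 differed from DMSO by -0.18 (95% interval -0.42 to 0.06). Between 1.0 μM and 0.1 μM, where all 6 arrays were under the threshold, it differed by -0.41 (SE 0.11, adjusted p = 0.020 from limma), a comparison in which 17.2% of the 10476 were called lower. This value no longer passed without any 1 of the 3 arrays at 0.1 μM, without replicate 2 or 3 at 1.0 μM (adjusted p = 0.051 to 0.067 from limma over these 5 omissions) and after quantile normalization (-0.32, adjusted p = 0.075 from limma).

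Pou3f1 changed less. Its log2 signals were 9.62, 9.43 and 9.36 in DMSO, 9.35, 9.41 and 9.33 at 0.1 μM and 9.28, 9.20 and 8.99 at 1.0 μM. The 1.0 μM arrays were all below the others, by 0.08 from the lowest DMSO array and by 0.05 from the lowest array at 0.1 μM, whereas DMSO and 0.1 μM overlapped. The difference between 1.0 μM and DMSO was -0.31 (SE 0.085, adjusted p = 0.023 from limma). The call was lost without DMSO replicate 1 (-0.24) or replicate 3 at 1.0 μM (-0.23), each with adjusted p = 0.058 from limma. It was also lost with only the compared groups in the fit (adjusted p = 0.065 from limma). The one-way F over the 3 groups gave an adjusted p of 0.11, whereas the moderated F of limma over the same groups gave 0.041. Without replicate 1 of DMSO and of 1.0 μM together the difference from DMSO passed (-0.30, adjusted p = 0.028 from limma). At 0.1 μM the difference from DMSO was -0.11 (95% interval -0.30 to 0.08, adjusted p = 0.48 from limma).

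Otx2, a factor that drives the exit from the naive state, did not pass in any of the 3 comparisons. Its log2 signals were 9.86, 9.82 and 9.78 in DMSO, 9.78, 9.81 and 9.77 at 0.1 μM and 9.89, 9.68 and 9.52 at 1.0 μM. The arrays at 1.0 μM spanned those of both other groups, with replicate 1 above every other array. The difference between 1.0 μM and DMSO was -0.13 (95% interval -0.30 to 0.05, adjusted p = 0.27 from limma), and without replicate 1 at 1.0 μM it was -0.22 and passed (adjusted p = 0.028 from limma). Without replicate 1 of DMSO and of 1.0 μM it was -0.20 (adjusted p = 0.052 from limma). At 0.1 μM the difference from DMSO was -0.04 (95% interval -0.21 to 0.14, adjusted p = 0.82 from limma).

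Sox3 was close to the background threshold. Its log2 signals were 8.58, 8.50 and 8.55 in DMSO, 8.50 on each array at 0.1 μM and 8.40, 8.51 and 8.16 at 1.0 μM. The 3 arrays at 0.1 μM held the same deposited value to the last digit, as 0.595% of tested probe sets did at this dose. Replicates 1 and 3 at 1.0 μM were below all other arrays and under the threshold, whereas replicate 2 was within the range of DMSO. The difference between 1.0 μM and DMSO was -0.19 (95% interval -0.36 to -0.01, adjusted p = 0.099 from limma). It passed only without replicate 2 at 1.0 μM, or at an adjusted threshold of 0.1. Without replicate 2 it was -0.27 (adjusted p = 0.034 from limma). At 0.1 μM the difference from DMSO was -0.04 (95% interval -0.22 to 0.13, adjusted p = 0.77 from limma).

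**Figure D2:**
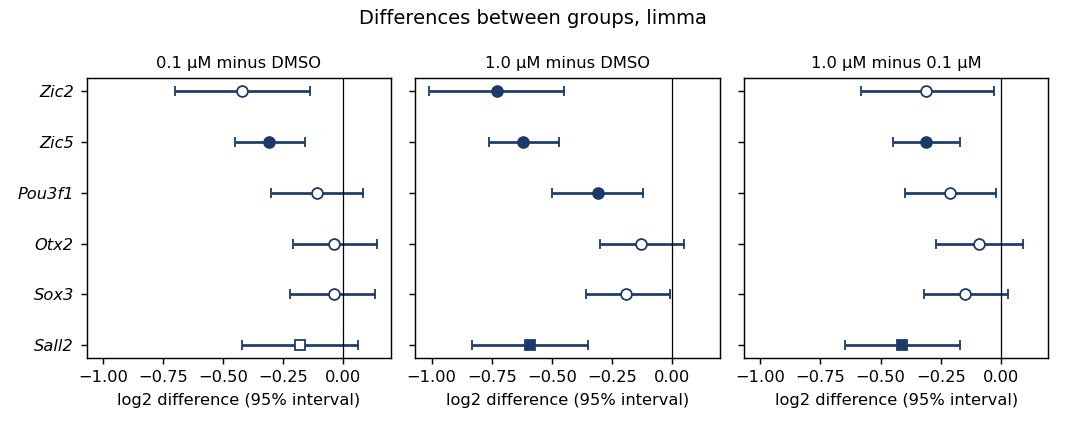
Log2 difference of each gene with its 95% interval from limma, for 0.1 μM minus DMSO, 1.0 μM minus DMSO and 1.0 μM minus 0.1 μM. Filled symbols mark an adjusted p under 0.05, and the square is Sall2, which was fitted over all 10476 probe sets and is in the table only through DMSO. Its fill against DMSO rests on that selection and is not read as a call. All points lie left of 0, from -0.73 for Zic2 at 1.0 μM to -0.04 for Otx2 and Sox3 at 0.1 μM.

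The doses were also compared directly, to ask whether the higher dose lowered these genes beyond the lower one. Zic5 was the only one of the 5 tested that passed, where 17.4% of all tested probe sets were called lower at 1.0 μM than at 0.1 μM. Zic2 differed by -0.31 (95% interval -0.58 to -0.03, adjusted p = 0.093 from limma) and Pou3f1 by -0.21 (95% interval -0.40 to -0.02, adjusted p = 0.098 from limma). For Zic2 this value rested on the spread at 1.0 μM. It was -0.47 without replicate 1 of that dose (adjusted p = 0.0052 from limma) and -0.18 without replicate 3 (adjusted p = 0.25, the highest from limma over the omissions of 1 array). Otx2 differed by -0.09 and Sox3 by -0.15, and neither passed (adjusted p = 0.43 and 0.19 from limma). Without replicate 1 of DMSO and of 1.0 μM, 4 of the 5 were called lower at 1.0 μM than at 0.1 μM. In that fit, added once the data had been examined, 1679 of the 9911 probe sets were called lower. The 4 genes were Zic2 (-0.47), Zic5 (-0.35), Pou3f1 (-0.27) and Otx2 (-0.18), with adjusted p = 0.0025, 0.0025, 0.027 and 0.046 from limma. None of the 5 was called higher in this comparison by limma, at an unadjusted p under 0.05 either, while 12.3% of all tested probe sets were. Zic5 and Pou3f1 had all 1.0 μM arrays below all arrays at 0.1 μM, as did 28.1% of all tested probe sets, with 23.6% separate in the other direction. An exact two-sided permutation test of single genes cannot go below p = 0.1 with 3 arrays against 3, a value that any gene with separate groups reaches, Sox3 at 0.1 μM among them.

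Most of these genes also deviated alike among replicates, Sox3 the least. After subtraction of the group means, the deviations of Zic2 over the 9 arrays had a Pearson correlation of 0.97 with those of Otx2, 0.91 with Sall2, 0.85 with Pou3f1, 0.74 with Zic5 and 0.49 with Sox3. Among all 15 pairs it was lowest, at 0.16, between Zic5 and Sox3. These values are descriptions with no other gene pairs set beside them, since all genes were read on the same 9 arrays and replicate 1 of DMSO and of 1.0 μM carries much of the spread. At 1.0 μM, Zic2 deviated by 0.32 in replicate 1 and by -0.25 in replicate 3, Otx2 by 0.19 and -0.17, and Sall2 by 0.22 and -0.20. Zic5 deviated by 0.09 and -0.03 on these arrays, the narrowest range of the 6 genes at that dose.

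**Figure D3:**
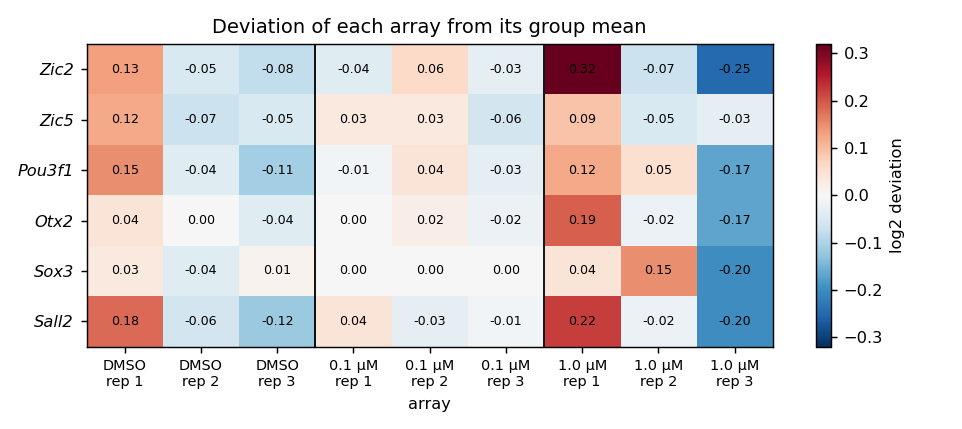
Deviation of each array from the mean of its group (log2, colour and printed value) for the 6 measured genes in rows and the 9 arrays in columns. Replicate 1 of DMSO is above its group mean for all 6 genes, and at 1.0 μM replicate 1 is above it and replicate 3 below it for all 6.

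Over the 9 arrays, the transcripts with the signal most like that of each gene were listed by Pearson correlation. The arrays form 3 groups, so this measure follows the group means and serves as a description only. For Zic5 they were the semaphorin receptor gene Plxnb1 (r = 0.980), the RNA sensor gene Ddx58 (r = 0.978) and the DNA methyltransferase gene Dnmt3b (r = 0.975). For Zic2 they were Zfp11 (r = 0.982), Cxxc1, which encodes a protein that binds unmethylated CpG (r = 0.977), and again Ddx58 (r = 0.975). Gne, an enzyme gene of sialic acid synthesis, was nearest to Pou3f1 (r = 0.989), followed by Slc27a2 (r = 0.977) and Ext1 (r = 0.976). The amino acid transporter gene Slc7a3 and Enoph1 were nearest to Sall2 (r = 0.981 for both), followed by Pip5k1a (r = 0.977). Nearest to Otx2 were the corepressor gene Sin3b (r = 0.970), Zbed3 (r = 0.958) and the chromatin remodelling gene Smarcb1 (r = 0.953), and nearest to Sox3 were Lman1 (r = 0.978), Dnajc8 (r = 0.976) and the mitochondrial channel gene Vdac2 (r = 0.973). At 1.0 μM, Slc7a3 differed from DMSO by -0.83 and Slc27a2 by -0.81, whereas Sin3b differed by -0.08 and Vdac2 by -0.09.

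Relatives from the same gene families were read from a list of 19. Of these 5 were measured, and at 1.0 μM 1 fell and 4 did not reach the threshold (median -0.16), while 14.3% of all tested probe sets were called lower. The one that fell was Fgf15, an FGF ligand of early neural cells, at 8.93 ± 0.10 in 1.0 μM and 9.68 ± 0.25 in DMSO (SD, n = 3 arrays each). Its difference was -0.75 (SE 0.11, adjusted p = 0.0014 from limma), whereas at 0.1 μM it was 0.38 and did not pass (adjusted p = 0.075 from limma). Fgf4, the FGF ligand of naive cells, differed by -0.24 at 1.0 μM (adjusted p = 0.052 from limma) and Sall1 by -0.16 (adjusted p = 0.16 from limma). Sox2, the close relative of Sox3, differed by 0.12 at 1.0 μM (adjusted p = 0.14 from limma). At 0.1 μM none of the 5 passed with limma, beside 4.66% of all tested probe sets called higher and 1.56% lower. At an unadjusted p under 0.05, which was not counted over all probe sets, 2 of the 5 were higher. The one-way F over the 3 groups, which tests no single comparison, passed for 1 of the 5. Over all tested probe sets it passed for 1073 with a lower and 1374 with a higher mean at 0.1 μM than in DMSO. The median of the 5 at 0.1 μM was 0.13.

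Other genes of the formative and epiblast states moved in both directions at 1.0 μM. Of 21 such genes 18 were measured and tested. Their median was -0.14, and 7 fell, 2 rose and 9 did not pass, where 14.3% of all tested probe sets were called lower and 13.4% higher. Dnmt3b, a de novo DNA methyltransferase that is induced in the formative state, had a log2 signal of 11.34 ± 0.068 at 1.0 μM against 11.94 ± 0.087 in DMSO (SD, n = 3 arrays each). It fell by 0.61 (SE 0.057, adjusted p = 0.00016 from limma). Lin28a, an RNA-binding protein gene that blocks let-7, fell by 0.60 (SE 0.092, adjusted p = 0.0016 from limma), as did the kinase gene Pim2 by 0.60 (SE 0.12, adjusted p = 0.0052 from limma). Tdgf1, the co-receptor of Nodal, fell by 0.24 (SE 0.049, adjusted p = 0.0073 from limma). The 2 that rose, named after their values were seen, were Tcf15 (0.31), a basic helix-loop-helix factor that primes cells for exit, and Cdh2 (0.47), which encodes N-cadherin. The call of Cdh2 ended on omission of DMSO replicate 3, and that of Tcf15 on omission of replicate 1 of DMSO and of 1.0 μM together.

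At 0.1 μM, 1 of these 18 genes fell and 1 rose, with a median of 0.05, beside 1.56% of all tested probe sets lower and 4.66% higher. Dnmt3b fell by 0.28 (SE 0.057, adjusted p = 0.021 from limma) and Hes6, an inhibitor of Hes1, rose by 0.32 (SE 0.076, adjusted p = 0.039 from limma). Dnmt3b lost this call without replicate 1 or 2 of DMSO or any 1 array at 0.1 μM. Hes6 lost it without DMSO replicate 2 or 3, any 1 array at 0.1 μM or replicate 2 at 1.0 μM. Pim2 differed by -0.45 at this dose and did not pass (adjusted p = 0.052 from limma).

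**Figure D4:**
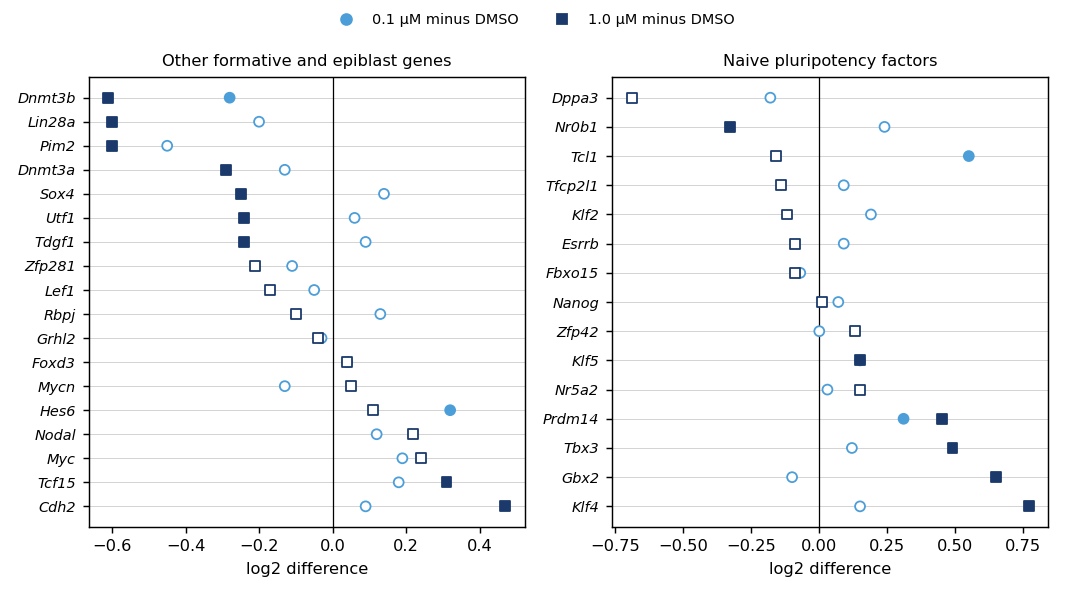
Log2 difference from DMSO at 0.1 μM (circles) and 1.0 μM (squares) for the measured genes of 2 lists, ordered by the value at 1.0 μM, with filled symbols at an adjusted p under 0.05. Dnmt3b, Lin28a and Pim2 lie lowest among the formative genes at 1.0 μM, and Klf4 and Gbx2 highest among the naive factors. Dppa3 was measured but not tested.

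Factors of the naive state moved in both directions at 1.0 μM. Of 15 such genes all were measured and 14 tested, and 5 rose, 1 fell and 8 did not pass, beside 13.4% of all tested probe sets higher and 14.3% lower. The median over the 15 was 0.01. Dppa3, a maternal factor of naive cells, was too dim to be tested and is named after its value was seen. It had 7.86 ± 0.17 at 1.0 μM and 8.54 ± 0.096 in DMSO (SD, n = 3 arrays each). The difference of -0.69 was the lowest of the 15. Dppa3 was above the threshold only on DMSO arrays, so, as for Sall2, this difference is not free of that selection. Klf4, a factor that sustains naive pluripotency, rose by 0.77 (SE 0.061, adjusted p = 0.00011 from limma), Tbx3 by 0.49 (adjusted p = 0.00064 from limma) and Prdm14, a repressor of FGF receptor genes and of de novo methylation, by 0.45 (adjusted p = 0.0013 from limma). Klf5 rose by 0.15 (adjusted p = 0.043 from limma). The other 2 calls were named after their values were seen, a rise of Gbx2 by 0.65 (adjusted p = 0.045 from limma) and a fall of Nr0b1 by 0.33 (adjusted p = 0.042 from limma). Omission of 1 array ended the call of Klf5 in 8 of 9 cases, of Nr0b1 in 8 and of Gbx2 in 7. At 0.1 μM, 4.66% of all tested probe sets were called higher and 1.56% lower, and the median over the 15 was 0.09. Of the 14 tested, 2 rose, and none fell by limma or at an unadjusted p under 0.05. These were Tcl1 (0.55, adjusted p = 0.0041 from limma) and Prdm14 (0.31, adjusted p = 0.024 from limma). Prdm14 lost the call at 0.1 μM without DMSO replicate 2 or any 1 array of that dose.

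Signals through FGF receptors and ERK drive the exit from the naive state, so the receptors and response genes were counted too. Of 18 genes 15 were measured and tested. At 1.0 μM 1 rose and 3 fell, with a median of 0.03, while 13.4% of all tested probe sets were higher and 14.3% lower. Etv4, an ETS factor, rose by 0.53 (adjusted p = 0.0092 from limma). The ETS factor gene Etv1 fell by 0.49 (adjusted p = 0.00086 from limma), Spry1, an inhibitor of receptor signals, by 0.30 (adjusted p = 0.0038 from limma) and the immediate early gene Egr1 by 0.54 (adjusted p = 0.020 from limma). For Egr1 the call ended on omission of DMSO replicate 1 or 3 or of 1.0 μM replicate 1 or 2. At 0.1 μM 2 rose and 2 fell, with a median of -0.04, while 4.66% of all tested probe sets were higher and 1.56% lower. The receptor gene Fgfr2 fell by 0.50 (adjusted p = 0.0041 from limma) and Etv1 by 0.49 (adjusted p = 0.0049 from limma), while the ERK phosphatase gene Dusp6 rose by 0.27 (adjusted p = 0.0072 from limma) and the early response gene Ier3 by 0.65 (adjusted p = 0.014 from limma). For Ier3 it ended on omission of 0.1 μM replicate 1 or 2.

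Several of the 6 genes are also expressed in neural cells, and markers of other cell types were read on the same arrays. Of 11 markers of neural ectoderm 4 were measured (Pax6, Nes, Tubb3 and Map2), and Sox1 was not among the values used here. The log2 of their summed linear signals was 10.72 to 10.85 in DMSO and 10.74 to 10.81 at 0.1 μM. At 1.0 μM it was 10.36 to 10.58. Tubb3, the brightest of the 4, weighed most in this sum. Pax6 differed from DMSO by -0.68 and Nes by -0.57 at 1.0 μM, both on signals near or under the threshold and not tested. Both were above the threshold only on DMSO arrays. As for Sall2, their differences from DMSO and their part in the sum are not free of that selection. Tubb3 (-0.26) and Map2 (0.19) were tested and did not pass. By limma, an unadjusted p under 0.05 and the one-way F, 0 of these 2 passed at 1.0 μM. Of 10 markers of the primitive streak and mesoderm 0 were measured, and of 9 markers of primitive endoderm 2. Gata4, Gata6 and Sox17 were not among the values used here. The 2 endoderm markers measured had a summed signal of 9.75 to 9.86 in DMSO, 10.07 to 10.13 at 0.1 μM and 9.68 to 9.83 at 1.0 μM. The sums of the 4 of 8 trophectoderm markers measured were 12.08 to 12.20 in DMSO, 12.45 to 12.59 at 0.1 μM and 12.31 to 12.50 at 1.0 μM. Those of the 3 of 9 fibroblast markers were 10.10 to 10.32 in DMSO, 10.50 to 10.62 at 0.1 μM and 10.07 to 10.21 at 1.0 μM. Those of the 2 of 7 macrophage markers were 10.78 to 11.00 in DMSO, 11.46 to 11.59 at 0.1 μM and 11.64 to 11.65 at 1.0 μM. At 0.1 μM the sums of these 4 lists were thus all above DMSO. At 1.0 μM the trophectoderm and macrophage sums were above DMSO, and those of endoderm and fibroblasts overlapped DMSO. The markers called at either dose are named after their values were seen. Higher at 0.1 μM were Lama1 (0.39), Plet1 (0.75), Thy1 (0.54), Cald1 (0.27), Cd68 (0.72) and Laptm5 (0.33), and Tfap2c (-0.25) was called lower. At 1.0 μM Krt8 (0.33), Tfap2c (0.32), Cd68 (0.91) and Laptm5 (0.30) were called higher and Tagln (-0.59) lower. The part of other cell types in the lower signals of Zic2, Zic5 and Pou3f1 was not tested.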

How the data were processed

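RNA of E14 cells was measured on 9 Affymetrix Mouse Gene 2.0 ST arrays, 3 for each condition. The authors assessed background in Affymetrix Expression Console and used RMA and GeneSpring, and the deposited values are log2 signals per probe set, normalized between arrays. The genome build of the annotation is not given in the sources used here. Only probe sets above a background threshold were kept by the authors, and each deposited one exceeds a log2 signal of 8.46 on at least 1 array. Gene symbols came from the platform annotation, and probe sets of several genes were not used for naming. The replicates are called biological, but separate cultures are not described, so p-values measure the spread between these arrays.

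The values were used as deposited. Probe sets above 8.46 on at least 3 of 9 arrays entered 1 linear model of all 3 groups (limma 3.58.1, R 4.3.3, moderated by eBayes), with Benjamini-Hochberg adjustment over 9911 probe sets. The script was tested on simulated data. Exact permutation tests used scipy 1.17.1. The genes and lists were chosen with earlier results of these data known. Of each list, the text names the 4 genes with the smallest p at 1.0 μM and up to 4 that passed at 0.1 μM, and for each gene the 3 transcripts most like it. Pcca and Clybl were taken by position. Promoters and gene order came from RefSeq (GRCm38.p6).

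The alternatives changed the filter (none, or above threshold on all 9 arrays), the scaling (quantile normalization, median centring), the model (only the compared groups, array weights, eBayes with trend and robust set together, the replicate number as a block, the methods' one-way F, which tests the 3 groups together), the call (1.5-fold at an unadjusted p under 0.05, adjusted p under 0.1), the summary of probe sets, or left out 1 array at a time.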

Additional observations from a re-analysis of the deposited data

How the results depend on the processing

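At 1.0 μM against DMSO, 3 of the tested genes were called lower, and 2 to 4 were without any single array. The count was 2 with only the compared groups or past 1.5-fold at an unadjusted p under 0.05, and 4 at an adjusted p under 0.1. It was also 4 without the filter, where Sall2 entered through its DMSO arrays, beside 14.2% of the 10476 probe sets called lower. At 0.1 μM against DMSO 1 was called lower, but 2 were in a fit of only the compared groups, with array weights, at an adjusted p under 0.1 or without replicate 1 of DMSO and of 1.0 μM, 0 past 1.5-fold at an unadjusted p under 0.05, and 0 to 2 without any single array. Between 1.0 μM and 0.1 μM 1 was called lower, but 2 were without the filter, where Sall2 entered, 3 with array weights or at an adjusted p under 0.1, 4 without replicate 1 of DMSO and of 1.0 μM, 0 past 1.5-fold, and 1 to 2 without any single array. The one-way F tests the 3 groups together, so its 2 passing genes, Zic2 and Zic5, are calls of no single comparison. No gene changed direction in a call under any alternative run, and each had 1 probe set, so the mean over probe sets changed nothing. Unless a value or the construction shows it, the cause was not tested.

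With the replicate number as a block, 2 genes were called lower at 0.1 μM, 3 at 1.0 μM and 3 between the doses. Over all tested probe sets, 225, 1580 and 1864 were called lower in these comparisons. Whether the replicate numbers pair the arrays was not tested. Between DMSO and 1.0 μM, deviations of same-numbered arrays correlated at 0.51, 0.07 and 0.44, and of differently numbered arrays at -0.44 to 0.12. Between DMSO and 0.1 μM these values were 0.09, 0.28 and -0.01, against -0.28 to 0.26. Between the doses they were -0.02, 0.16 and -0.01, against -0.11 to 0.10.

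Over all probe sets, 155 were lower and 462 higher at 0.1 μM, against 552 and 847 with array weights, 465 and 861 at an adjusted p under 0.1, 13 and 57 past 1.5-fold, and 13 to 239 and 130 to 539 without any single array. At 1.0 μM, 1418 were lower and 1326 higher, against 893 and 816 with only the compared groups and 190 and 104 past 1.5-fold. Between the doses, 1724 were lower and 1223 higher at 1.0 μM, against 2690 and 2358 with array weights, 224 and 60 past 1.5-fold, and 1134 to 1886 and 633 to 1363 without any single array. Without replicate 1 of DMSO and of 1.0 μM, 181 were lower and 483 higher at 0.1 μM, and 1679 and 992 between the doses. At an adjusted p under 0.1, 1907 were lower and 1745 higher at 1.0 μM, and 2150 and 1654 between the doses. Sall2 and Sox3 are limited by their low signal over background.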
